A study of Homo sapiens with 6 samples.

Results

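A set of 10 genes of the tubulin family were followed in THP1 cells, a human acute myeloid leukemia (AML) line of monocytic character. They are the alpha-tubulin genes TUBA1A, TUBA1B, TUBA1C and TUBA4A, the beta-tubulin genes TUBB2A, TUBB2B, TUBB3, TUBB4B and TUBB6, and the gamma-tubulin gene TUBG1. They were chosen by name, 10 of 26485 genes with a row of counts. TUBB, another widely expressed beta-tubulin gene, lies in the MHC, where counts are largely missing here. It was left out of the 10 genes. RNA was sequenced from cells exposed for 6 h to withaferin A (WFA), a steroidal lactone from a medicinal plant, or to its DMSO vehicle. Each group had 3 libraries, from 3 independent experiments. The sample labels give the dose of WFA as 1 mM and the methods of the study as 1 μM, and both are stated here because the files cannot settle it. Each library is of 1 cell line, so the results describe this line only.

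Microtubules are hollow filaments built from heterodimers of alpha- and beta-tubulin. Gamma-tubulin sits in ring complexes that start new filaments, and it is not part of the filament wall. The alpha and beta isotypes come from separate genes with nearly the same core and different carboxy-terminal tails. Cells also limit tubulin synthesis by a feedback on the message. When unassembled heterodimers are in excess, TTC5 reads the first residues of a nascent tubulin chain on the ribosome, and SCAPER and CNOT11 link it to the deadenylation machinery that removes the mRNA.

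That feedback depends on how the coding sequence begins, so the first 4 codons of each gene are shown, from the principal transcripts of GENCODE 29, with the codons after the start codon in capitals.
TUBA1A: atgCGTGAGTGC
TUBA1B: atgCGTGAGTGC
TUBA1C: atgCGTGAGTGC
TUBA4A: atgCGTGAATGC
TUBB2A: atgCGCGAGATC
TUBB2B: atgCGTGAGATC
TUBB3: atgAGGGAGATC
TUBB6: atgAGGGAGATC
TUBB4B: atgAGGGAAATC
TUBG1: atgCCGAGGGAA
The alpha genes had the same 12 bases except in TUBA4A, and TUBB3 and TUBB6 shared theirs exactly. The beta genes had 4 different starts among them in bases, but all of these encode Met-Arg-Glu-Ile. All alpha starts, that of TUBA4A included, encode Met-Arg-Glu-Cys. The start of TUBG1 was unlike all the others and encodes Met-Pro-Arg-Glu.

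The alpha genes TUBA1A, TUBA1B and TUBA1C lie together on chromosome 12 (GRCh38, GENCODE 29). TUBA1B spans chr12:49127782-49131397 and TUBA1A chr12:49184796-49189324, both on the minus strand with 53.4 kb between them. TUBA1C spans chr12:49188736-49274603 on the plus strand and overlaps the start of TUBA1A. TUBA4A is at chr2:219249711-219278170 (minus strand). TUBB2A, at chr6:3153669-3157526, and TUBB2B, at chr6:3224261-3231730, are neighbours on the minus strand, 66.7 kb apart. The other beta genes are dispersed, with TUBB3 at chr16:89921392-89938761, TUBB4B at chr9:137241213-137243707 and TUBB6 at chr18:12307669-12344320, all on the plus strand. TUBG1 is at chr17:42609676-42615234 (plus strand). All 10 are protein-coding in the annotation.

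Family members resemble each other closely, which bears on how firmly a read can be given to one of them. Of all windows of 50 bases in the longest coding transcript, between 0.99% (TUBB6) and 79.6% (TUBB3) also occurred in a transcript of another gene, and 7 of the 10 genes were over 20%. TUBA1B shared 62.7% of its windows, 38.6% with TUBA1A and 37.2% with TUBA1C, and TUBB2A shared 65.5%, mostly with TUBB2B. TUBG1 shared 29.9%, mostly with TUBG2. The windows of TUBB3 were shared with AC092143.1, an overlapping readthrough locus on the same strand that has no row in the counts. TUBB4B (9.89%), TUBA4A (4.53%) and TUBB6 were the most separable. On the opposite strand, exons of TUBA1C cover 14.3% of the exon bases of TUBA1A, exons of STK16 cover 15.4% of those of TUBA4A, and exons of AFG3L2 cover 20.3% of those of TUBB6. Antisense genes with no row in the counts also overlap. AC011603.2 covers 36.6% of the exon bases of TUBA1B, and AC125611.3 covers 14.4% of those of TUBA1C. How reads that fit several genes, or the strand, were handled is not given in the sources used here, so splits between these genes are uncertain.

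Libraries held between 11006035 and 13872810 counts on genes. The 10 tubulin genes took between 0.153% and 0.173% of the counts with DMSO and between 0.129% and 0.151% with WFA. Levels are given as CPM, the count relative to the library total as scaled by edgeR's TMM factors, and 3 counts, taken as the limit that a count of 0 allows, came to between 0.211 and 0.279 CPM. These limits cover counting error only. Cell identity was checked with 7 myeloid markers, all detected, whose summed level ranged from 2328 to 2886 CPM with DMSO and from 1935 to 2735 CPM with WFA. LYZ made up most of that sum. By the test described below, 4 of the 7 were lower with WFA, where 24.7% of all tested genes were lower. Among them were CD33, CEBPA and CSF1R, with log2 fold changes of -0.85, -0.58 and -0.40. None of the 7 was higher (0 also at an unadjusted p under 0.05 and in DESeq2's Wald test), where 25.8% of all tested genes were. Of 9 markers of other lineages, HBB, HBA1 and COL1A2 were at 0 in every library. The summed level of those 9 was 0.914 to 2.17 CPM with DMSO and 10.4 to 13.9 CPM with WFA, most of it from the collagen gene COL1A1 (9.95 ± 2.27 CPM with WFA, SD, n = 3). The part of these marker changes in the tubulin results was not tested. In bulk RNA, fewer cells of a kind and less RNA per cell cannot be told apart.

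WFA moved the tubulin genes in both directions, and the largest fitted change was in TUBB3, a gene of very low level. A test on the counts of 12854 genes, edgeR's quasi-likelihood method with p-values adjusted after Benjamini and Hochberg and a threshold of 0.05, was used throughout. Of the 10 tubulin genes, 8 passed the filter on low counts. TUBA1A, TUBA4A and TUBB3 rose, 3 genes, where 25.8% of all tested genes were higher. TUBB4B and TUBB6 fell, 2 genes, where 24.7% of all tested genes were lower. TUBA1B, TUBA1C and TUBG1 did not pass. The median log2 fold change of the 8 was -0.07, against 0.02 over all tested genes. These shares lie close to those of the whole table, so the counts of calls do not set the family apart. With the replicate number as a block 3 members were higher and 3 lower (30.2% and 28.8% of all tested genes, 59.0% in either direction). DESeq2's Wald test called 2 higher and 2 lower (20.4% and 21.1% of the genes it tested, 41.5% in either direction). TUBB3 passed the filter only through its WFA libraries.

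**Figure D1:**
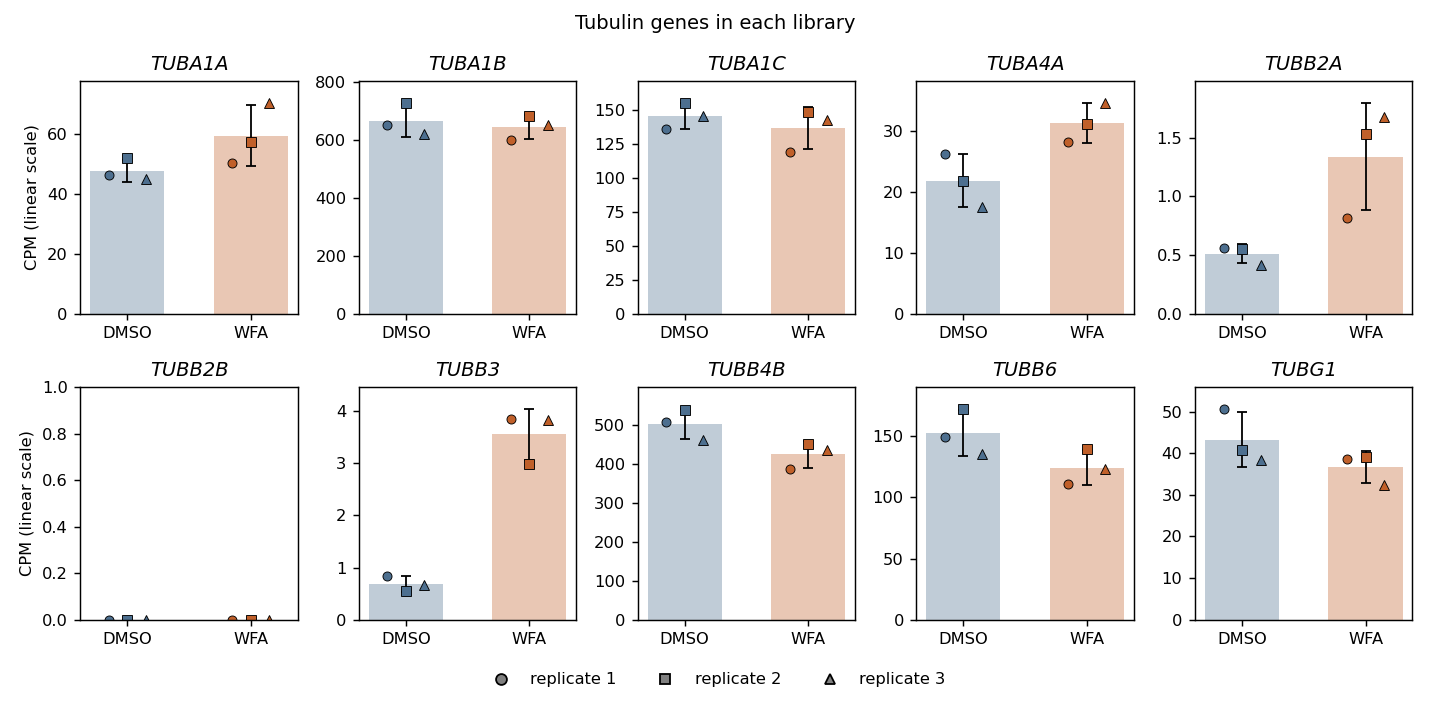
Level of each tubulin gene in CPM on a linear scale, by library, with DMSO in blue and WFA in orange. Bars are means, error bars SD (n = 3), and circles, squares and triangles are replicates 1, 2 and 3. TUBA4A, TUBB2A and TUBB3 are higher in every WFA library than in every DMSO library, TUBB4B is lower in every one, and TUBB2B is at 0.

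Among the alpha genes, those of low level rose and those that carry most of the alpha message did not pass. TUBA1B encodes a ubiquitous alpha isotype. It had 653, 729 and 619 CPM in DMSO replicates 1, 2 and 3, and 599, 682 and 652 CPM in the WFA replicates. The groups overlapped, and the highest and the lowest library were a DMSO and a WFA library. The mean was 667 ± 56.3 with DMSO and 645 ± 42.1 CPM with WFA (SD, n = 3 each). The log2 fold change was -0.05 (95% interval -0.25 to 0.15, edgeR adjusted p = 0.692).

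TUBA1C, a further widely expressed alpha isotype, had 136, 155 and 145 CPM with DMSO and 119, 149 and 143 CPM with WFA. Again the groups overlapped, with WFA replicate 1 below all other libraries. The log2 fold change was -0.09 (95% interval -0.30 to 0.12, edgeR adjusted p = 0.473). For both genes, the interval holds changes in either direction.

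TUBA1A, the alpha isotype best known from developing neurons, had 46.3, 51.9 and 45.1 CPM with DMSO and 50.4, 57.4 and 70.5 CPM with WFA. The lowest WFA library lay below the highest DMSO library, and replicate 3 of WFA stood above the rest. The mean went from 47.7 ± 3.63 to 59.5 ± 10.2 CPM (SD, n = 3 each), and the log2 fold change was 0.31 (SE 0.12, edgeR adjusted p = 0.0368). Within the pairs of same-numbered libraries it was 0.12, 0.15 and 0.65. The call rested on a few libraries. It was lost without WFA replicate 3, where the log2 fold change was 0.18 (edgeR adjusted p = 0.205), and also without DMSO replicate 1 (0.109) or DMSO replicate 3 (0.112). In DESeq2's Wald test the adjusted p was 0.0588.

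TUBA4A encodes an alpha isotype whose gene does not encode the terminal tyrosine found on most others. Its level was 26.2, 21.9 and 17.6 CPM with DMSO and 28.2, 31.2 and 34.7 CPM with WFA. Every WFA library was above every DMSO library, with the smallest distance in replicate 1. The mean rose 1.43-fold, from 21.9 ± 4.33 to 31.4 ± 3.27 CPM (SD, n = 3 each). The log2 fold change was 0.51 (SE 0.14, edgeR adjusted p = 0.00705), and 0.10, 0.51 and 0.98 in the pairs of replicates 1, 2 and 3. The call held with each library left out in turn, when the log2 fold change was between 0.38 and 0.66 and the edgeR adjusted p at most 0.0384.

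To keep apart the level of the subfamily and the split of reads among its genes, the alpha counts were also summed in each library. If reads that fit several genes were not counted, which is not known here, a sum lacks them too. The sum was 861, 958 and 827 CPM with DMSO and 797, 919 and 900 CPM with WFA. The groups overlapped almost wholly. The log2 fold change of the sum was -0.02 (95% interval -0.22 to 0.19, edgeR adjusted p = 0.903).

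The beta genes differed more from each other. TUBB4B, a beta isotype found in most tissues, had 508, 538 and 461 CPM with DMSO and 386, 452 and 435 CPM with WFA. Every WFA library was below every DMSO library. The mean went from 502 ± 38.5 to 424 ± 34.4 CPM (SD, n = 3 each). It fell by 15.6%, with a log2 fold change of -0.24 (SE 0.10, edgeR adjusted p = 0.0439). In the pairs the log2 difference was -0.40, -0.25 and -0.09. The adjusted p lay just under the threshold. It was above it without DMSO replicate 1 (0.111), DMSO replicate 2 (0.138), WFA replicate 1 (0.169) or WFA replicate 3 (0.0601), with log2 fold changes between -0.30 and -0.18 over all 6 such fits.

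TUBB6, the class V beta isotype, had 150, 172 and 136 CPM with DMSO and 111, 139 and 123 CPM with WFA. The groups overlapped, since DMSO replicate 3 lay below WFA replicate 2, but WFA was the lower library in each pair (log2 differences of -0.44, -0.31 and -0.14). The mean fell by 18.5%, from 153 ± 18.5 to 124 ± 14.4 CPM (SD, n = 3 each). The log2 fold change was -0.30 (SE 0.11, edgeR adjusted p = 0.0304). As for TUBB4B, the call was lost without DMSO replicate 1 (0.0597), DMSO replicate 2 (0.141), WFA replicate 1 (0.132) or WFA replicate 3 (0.0684).

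TUBB3, the class III beta isotype used as a marker of neurons, had the largest change of the 8 tested genes. Its counts were 12, 7 and 8 with DMSO and 47, 37 and 41 with WFA. In CPM this was 0.844, 0.553 and 0.667 against 3.84, 2.98 and 3.82. The groups lay far apart, with little spread within either. The mean rose 5.05-fold, from 0.688 ± 0.147 to 3.54 ± 0.489 CPM (SD, n = 3 each). Its log2 fold change was 2.33 (SE 0.29, 95% interval 1.71 to 2.96, edgeR adjusted p = 1.02e-05). TUBB3 was tested at all only because its WFA libraries reached the minimum count, so its place among the genes that rose is in part set by the filter. The pairs gave 2.19, 2.43 and 2.52, and leaving out 1 library gave between 2.19 and 2.52. MC1R, the gene just upstream of TUBB3 that the readthrough locus also covers, had 43, 50 and 40 counts with DMSO and 32, 38 and 29 with WFA (log2 fold change -0.29, edgeR adjusted p = 0.290), and its part in the TUBB3 value was not tested.

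TUBB2A and TUBB2B are near-identical neighbours best known from the brain. TUBB2A had 8, 7 and 5 counts with DMSO and 10, 19 and 18 with WFA, or 0.511 ± 0.0817 and 1.34 ± 0.459 CPM (SD, n = 3 each). Every WFA library was above every DMSO library, but the gene did not pass the filter and was not tested in the comparison above. When the filter was dropped, its log2 fold change was 1.34 (SE 0.43, edgeR adjusted p = 0.00736), and in DESeq2's Wald test it was 1.36 (adjusted p = 0.0563). TUBB2B had no count in any library, which allows up to 0.279 CPM in the shallowest one, so the summed counts of both genes were those of TUBB2A. That sum, added to the edgeR fit without passing the filter, had a log2 fold change of 1.36 (SE 0.39, edgeR adjusted p = 0.00913).

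**Figure D2:**
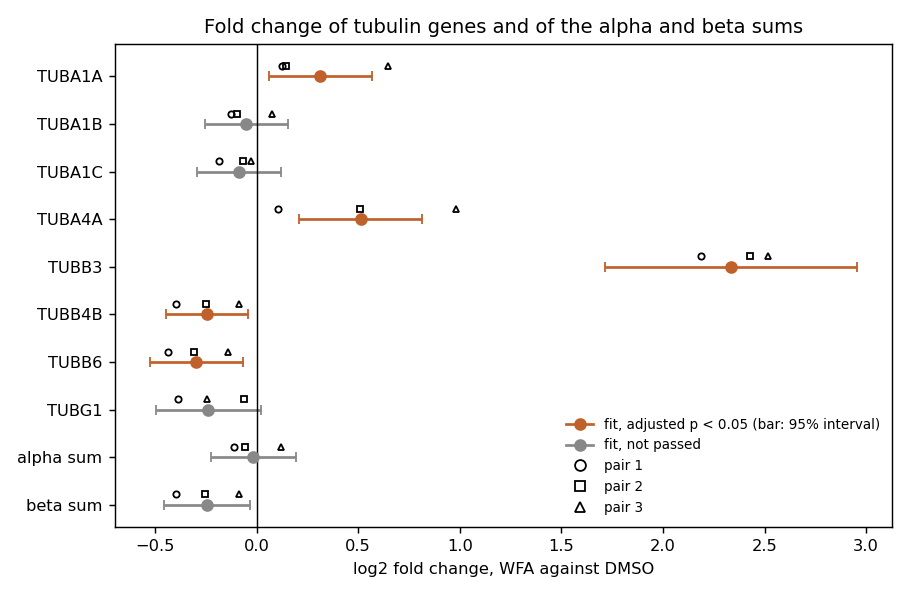
log2 fold change of WFA against DMSO for the 8 tested tubulin genes and the alpha and beta sums. Filled points and bars are edgeR's estimate with its 95% interval, in orange where the adjusted p was under 0.05, and open symbols are the 3 pairs of same-numbered libraries. TUBB3, at 2.33, lies far to the right of the other genes, which lie between -0.30 and 0.51.

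The 5 beta genes summed to 659, 711 and 598 CPM with DMSO and 501, 596 and 563 CPM with WFA. WFA replicates 1, 2 and 3 lay below all DMSO libraries, with the closest 2 at 596 and 598 CPM. The sum went from 656 ± 56.6 to 553 ± 48.2 CPM (SD, n = 3 each). Its log2 fold change was -0.25 (SE 0.10, 95% interval -0.46 to -0.03), which just missed the threshold (edgeR adjusted p = 0.0503). With the replicate number as a block, it was -0.25 with an edgeR adjusted p of 0.00492. The sum leaves out TUBB, which was itself lower with WFA in the counts at hand. The large relative change of TUBB3 added little to it, since TUBB4B and TUBB6 held nearly all beta counts.

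TUBG1 encodes the main gamma-tubulin of most cells. It had 50.6, 40.7 and 38.3 CPM with DMSO and 38.7, 39.0 and 32.4 CPM with WFA. The groups overlapped, and WFA was the lower library in each pair. The mean was 43.2 ± 6.53 with DMSO and 36.7 ± 3.74 CPM with WFA (SD, n = 3 each). The log2 fold change was -0.24 (SE 0.12, 95% interval -0.49 to 0.02, edgeR adjusted p = 0.116). The edgeR fit with the replicate block gave -0.23 and a call (edgeR adjusted p = 0.0319), whereas DESeq2 with the same block gave -0.25 and none (adjusted p = 0.107). With 1 library left out the log2 fold change ranged from -0.32 to -0.11. It was -0.11 without DMSO replicate 1 (edgeR adjusted p = 0.506) and -0.15 without WFA replicate 3 (0.353).

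Counting libraries without a model, 2 of the 8 tested genes (TUBA4A and TUBB3) had every WFA library above every DMSO library, as 29.6% of all tested genes did. TUBB3 is among the 8 only through its WFA libraries, so its place in this count is in part set by the filter. Of the 8, 1 (TUBB4B) had every WFA library below, as 28.5% of all tested genes did (58.1% in either direction). Libraries of the other 5 overlapped. In the 3 pairs, 3 genes were higher with WFA each time, 4 were lower each time, and TUBA1B had mixed signs. No share over all tested genes was computed for the pairs, so these counts are no result about the family.

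Shares within each subfamily do not depend on how libraries were scaled. They add up to a fixed total in each library, so a rise in 1 share means a fall in another. TUBA1A took 5.37%, 5.42% and 5.45% of the alpha counts with DMSO and 6.32%, 6.25% and 7.84% with WFA. TUBA4A took 3.05%, 2.28% and 2.13% with DMSO and 3.54%, 3.39% and 3.86% with WFA. For both, all WFA libraries were above all DMSO libraries (exact two-sided permutation p = 0.1, the smallest that 3 libraries against 3 can give, so that no share can pass 0.05). TUBA1B remained the main alpha gene at 75.6% ± 0.655 with DMSO and 73.9% ± 1.38 with WFA (SD, n = 3 each, exact permutation p = 0.2). TUBA1C took 16.5% ± 0.948 and 15.7% ± 0.614 (SD, n = 3 each, exact permutation p = 0.4). Both overlapped between groups, but each was lower with WFA in all 3 pairs, which the unpaired test does not use. These falls are not separate from the rises of TUBA1A and TUBA4A.

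Among the beta genes, TUBB4B took 76.6% ± 0.861 of the counts with DMSO and 76.7% ± 0.707 with WFA (SD, n = 3 each, exact permutation p = 0.8), and TUBB6 23.2% ± 0.884 and 22.4% ± 0.821 (exact permutation p = 0.4). These were the 2 genes whose levels fell. Their shares overlapped between groups, but in the pairs that of TUBB6 was lower with WFA each time (22.7% to 22.1%, 24.2% to 23.4% and 22.7% to 21.8%), while that of TUBB4B had mixed signs. TUBB3 went from 0.106% ± 0.0257 to 0.648% ± 0.136 and TUBB2A from 0.0776% ± 0.00787 to 0.239% ± 0.0688 (SD, n = 3 each, exact permutation p = 0.1 for each). Both had no overlap between groups, and both stayed under 1% of the beta counts.

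**Figure D3:**
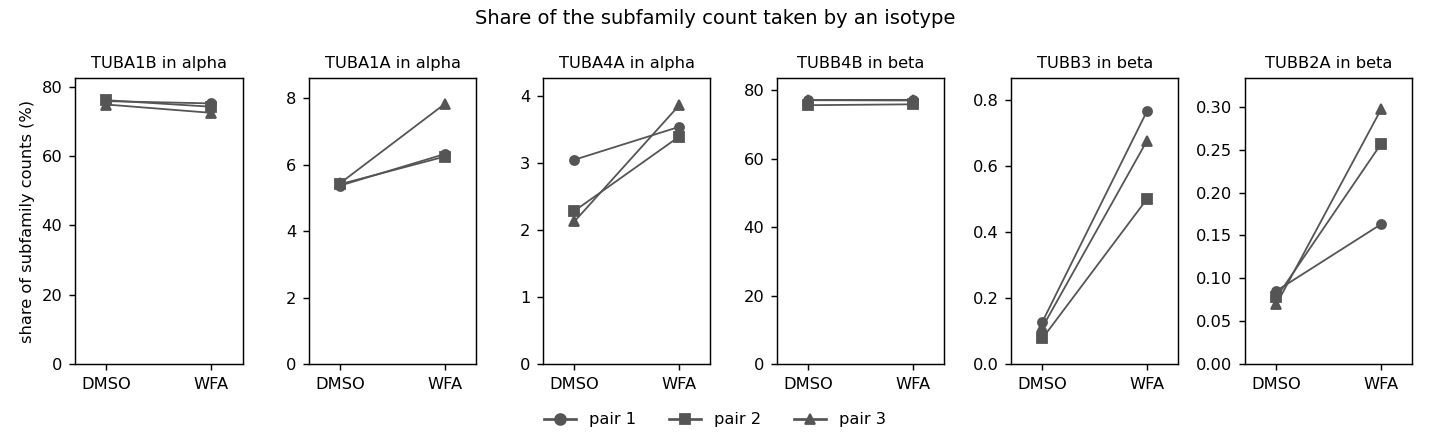
Share of the summed alpha or beta counts taken by 6 isotypes, in percent, with a line joining the DMSO and WFA libraries of each replicate number. Each panel starts at 0 and has its own scale. The share of TUBA1B is slightly lower with WFA in all 3 pairs and that of TUBB4B is nearly level, while TUBA1A, TUBA4A, TUBB3 and TUBB2A are higher with WFA in all 3 pairs.

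Levels of different genes were compared per kilobase of the longest coding transcript, with the unit CPM per kb. With DMSO, TUBA1B was the most abundant at 410 ± 34.6, before TUBB4B at 307 ± 23.5 (SD, n = 3 each). TUBB6 followed at 73.9 ± 8.96 and TUBA1C at 48.5 ± 3.26. TUBG1 at 26.8 ± 4.05 and TUBA1A at 24.9 ± 1.90 did not differ beyond their spread, and TUBA4A was below both at 8.76 ± 1.73. TUBB3 at 0.348 ± 0.0742 and TUBB2A at 0.320 ± 0.0512 did not differ beyond their spread either, and TUBB2B was at 0. THP1 cells thus drew their alpha-tubulin message mainly from TUBA1B and, among the beta genes counted, their beta-tubulin message mainly from TUBB4B. With WFA, the order was the same except that TUBA1A (31.0 ± 5.34 CPM per kb) was above TUBG1 (22.8 ± 2.32). Per kilobase of the median transcript, TUBA1A was above TUBG1 already with DMSO (48.5 against 35.2), so this switch depends on the transcript chosen. TUBB3 reached 1.79 ± 0.247, still below TUBA4A at 12.5 ± 1.31 and far below TUBB4B at 259 ± 21.0.

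The 250 bases before each RefSeq start of transcription (GRCh38.p14) were searched on both strands, at every position, for 4 short motifs. All 10 genes had an entry, with 14 windows in all. The core of the heat shock element, GAANNTTC, was in 2 windows, which overlap and are both of TUBA1C, and in 4.19% of the promoters of tested genes. The core of the antioxidant response element, TGANNNNGC, was in 1 window each of TUBA1C and TUBB3, and in 34.9% of those promoters. CCAAT was in 9 windows of 7 genes, and in 32.8% of those promoters. TATAAA was in 1 window, of TUBB2A, and in 5.86% of those promoters. A match describes the letters only.

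The parts of these windows outside annotated exons are shown for TUBB3, the gene with the largest rise, and for TUBB4B, the most abundant beta gene, which fell. Both windows of TUBB3 lie on the plus strand inside the annotated span of the gene. In the first, at chr16:89921675-89921850, capitals mark a pair of overlapping matches to TGANNNNGC on the minus strand, 126 and 122 bases before the start. Another match, 21 bases before the start, falls in the part not printed.
TUBB3: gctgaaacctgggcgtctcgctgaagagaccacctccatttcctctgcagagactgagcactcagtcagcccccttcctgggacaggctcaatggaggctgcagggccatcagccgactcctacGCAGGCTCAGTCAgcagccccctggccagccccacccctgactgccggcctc
In the second, at chr16:89923092-89923278, capitals mark a CCAAT box on the minus strand, 79 bases before the start.
TUBB3: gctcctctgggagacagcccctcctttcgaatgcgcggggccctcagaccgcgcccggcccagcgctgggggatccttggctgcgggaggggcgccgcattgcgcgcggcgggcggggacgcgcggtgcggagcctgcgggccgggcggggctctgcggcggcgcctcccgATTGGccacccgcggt
The window of TUBB4B, on the plus strand at chr9:137241037-137241212, held 3 CCAAT boxes, in capitals, 232, 166 and 103 bases before the start.
TUBB4B: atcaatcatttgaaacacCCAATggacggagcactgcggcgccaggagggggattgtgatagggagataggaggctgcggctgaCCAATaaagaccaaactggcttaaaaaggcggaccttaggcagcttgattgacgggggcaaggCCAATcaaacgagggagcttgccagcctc

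Genes around tubulin were read from lists, beside shares of 25.8% higher and 24.7% lower over all tested genes. Of 11 other tubulin genes, 5 were tested, 1 rose and none fell (0 also at an unadjusted p under 0.05 and in DESeq2's Wald test). The one that rose was TUBE1, epsilon-tubulin of the centriole, with 20.8, 24.2 and 26.4 CPM with DMSO and 30.2, 33.7 and 48.1 CPM with WFA. All its WFA libraries were above all DMSO libraries (log2 fold change 0.65, SE 0.16, edgeR adjusted p = 0.00286).

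Newly made tubulin is folded by prefoldin and the ring chaperonin CCT and is joined into heterodimers by the cofactors TBCA to TBCE. Of 20 tested genes of this route 7 rose (35%, against 25.8% of all tested genes), 3 fell (15%, against 24.7%) and 10 did not pass. The median log2 fold change was 0.15. The CCT subunits TCP1 (log2 fold change 0.94, edgeR adjusted p = 1.52e-06), CCT4 (0.65, 1.94e-05) and CCT6A (0.69, 2.12e-05) had the smallest p-values among those that rose. TCP1 went from 748 ± 53.8 to 1431 ± 78.6 CPM (SD, n = 3 each). The prefoldin subunit PFDN2 (log2 fold change -0.51, edgeR adjusted p = 0.00131) and the cofactors TBCD (-0.47, 0.00941) and TBCE (-0.25, 0.0283) fell.

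Over all tested genes 24.7% fell and 25.8% rose. Of the 9 genes of the gamma-tubulin ring complex and its anchors, 4 fell, 1 rose and 4 did not pass, with a median log2 fold change of -0.21. Those with the smallest p-values among the 4 were the ring subunits TUBGCP4 (log2 fold change -0.36, edgeR adjusted p = 0.00558) and TUBGCP3 (-0.32, 0.0115) and the targeting factor NEDD1 (-0.45, 0.00691). TUBGCP3 went from 54.0 ± 1.40 to 43.4 ± 3.27 CPM (SD, n = 3 each). The small subunit MZT2B rose (log2 fold change 0.43, edgeR adjusted p = 0.0305), with overlapping groups. With the replicate block 2 genes of this list were higher and 5 lower (30.2% and 28.8% of all tested genes). The ones added were MZT2A (higher, edgeR adjusted p = 0.0111 with the block) and MZT1 (lower, 0.0412), both named here after their values were seen.

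Enzymes that add or remove groups on tubulin moved both ways, with 5 of 16 tested genes higher, 4 lower and 7 not passed (median log2 fold change 0.03). Among all tested genes 25.8% were higher and 24.7% lower. VASH1, a carboxypeptidase that removes the terminal tyrosine of alpha-tubulin, fell from 111 ± 11.5 to 50.5 ± 6.13 CPM (SD, n = 3 each, log2 fold change -1.14, edgeR adjusted p = 6.02e-07). TTLL12 (log2 fold change -0.66, edgeR adjusted p = 6.17e-05) and TTLL1, part of a glutamylase (-0.75, 0.00053), also fell. The glutamylases TTLL7 (log2 fold change 1.44, edgeR adjusted p = 0.000903) and TTLL4 (0.40, 0.00335) and the deglutamylase AGBL5 (0.48, 0.0066) rose.

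All 3 genes of the tubulin mRNA feedback were tested. TTC5, which recognises the nascent tubulin chain, had 17.8, 18.1 and 18.7 CPM with DMSO and 13.6, 13.8 and 13.3 CPM with WFA. The groups were far apart for their small spread, and TTC5 fell by 25.3% (log2 fold change -0.42, SE 0.12, edgeR adjusted p = 0.00892). CNOT11 fell from 106 ± 1.04 to 88.7 ± 2.11 CPM (SD, n = 3 each, log2 fold change -0.25, edgeR adjusted p = 0.015). SCAPER had 19.3 ± 2.38 and 21.9 ± 3.31 CPM (SD, n = 3 each, log2 fold change 0.18, edgeR adjusted p = 0.307). None rose, at an unadjusted p under 0.05 (0 genes) or in DESeq2's Wald test (0 genes). Of all tested genes, 25.8% were higher and 24.7% lower.

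Proteins that bind, sever or move along microtubules gave 11 higher, 7 lower and 9 not passed among 27 tested genes (median log2 fold change 0.19). MAP1A, which stabilises microtubules in neurons, rose from 3.03 ± 0.936 to 18.6 ± 5.41 CPM (SD, n = 3 each, log2 fold change 2.61, edgeR adjusted p = 5.34e-07). The plus-end proteins CLIP2 (log2 fold change 1.78, edgeR adjusted p = 4.68e-08) and CLASP1 (1.16, 9.07e-08) also rose. FIGNL1, of the severing enzyme family (log2 fold change -0.69, edgeR adjusted p = 4.14e-05), the depolymerising kinesin KIF2C (-0.77, 8.08e-05) and the microtubule polymerase CKAP5 (-0.50, 0.000455) fell. With 25.8% of all tested genes higher and 24.7% lower, none of these counts was tested against the background.

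**Figure D4:**
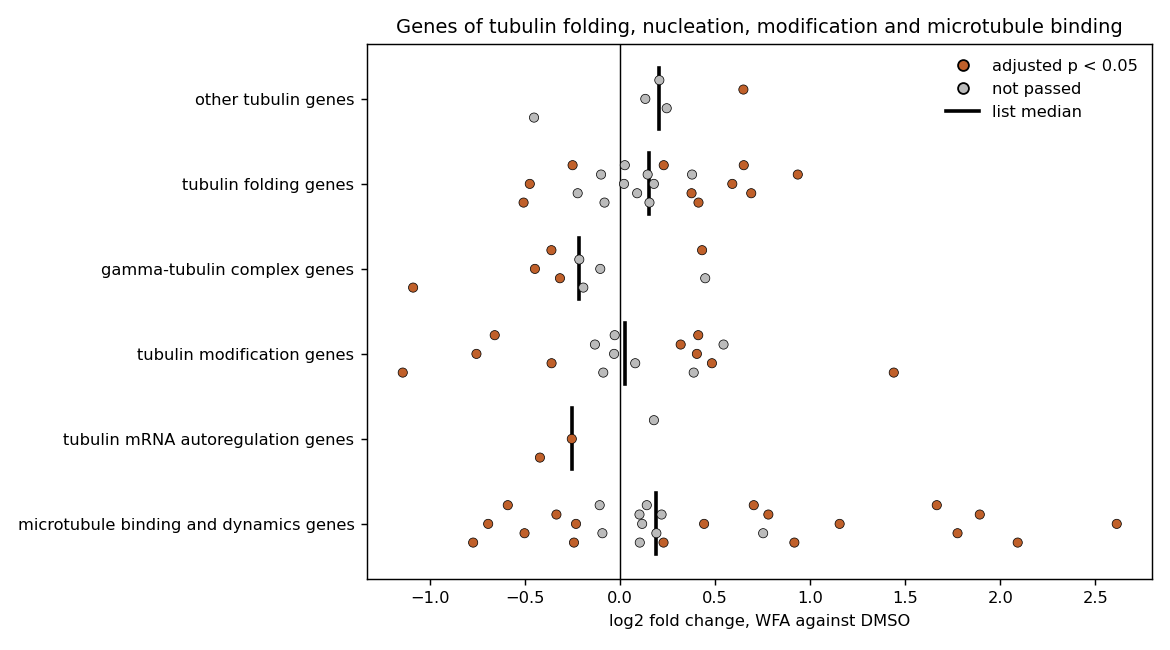
log2 fold change of WFA against DMSO for each tested gene of the 6 lists around tubulin, 1 point a gene, in orange where edgeR's adjusted p was under 0.05 and grey where it was not. Black bars are list medians, from -0.25 for the 3 feedback genes to 0.21 for the other tubulin genes, and points are spread vertically only to keep them apart.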

How the data were processed

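RNA of THP1 cells was sequenced in 6 libraries, 3 with DMSO and 3 with WFA. The values used here are the raw read counts per gene that the authors deposited, which are not normalized. Beside them the deposited table holds a scaled score per library, 2 group means, and the authors' own log2 fold changes and p-values, none of which were used. The submitters' processing notes name hg38, bcl2fastq 2.19, Trimmomatic, Bowtie2, Picard, featureCounts and DESeq2. Multiply mapped reads and strand are not given in the sources used here.

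Counts were analysed with edgeR 4.0.16 in R 4.3.3 (TMM, filterByExpr with a minimum count of 10, quasi-likelihood test and Benjamini-Hochberg adjustment over 12854 genes). Summed counts entered the same fit as added rows. The total counts limit the precision, as do 3 libraries a group. Scripts were tested on simulated data.

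The members and lists were chosen with earlier results of these data known. From each list up to 3 genes higher and 3 lower with the smallest p-values were named, and all genes of a list of 3. Replicate numbers mark independent experiments, since same-numbered samples share a code in the labels. Their deviations from the group means correlated at 0.22, 0.33 and 0.25 (across genes), against -0.26 to 0.0037 for other pairs, so a replicate block was an alternative. Its residual degrees of freedom were 2 against 4. Its prior degrees of freedom, the weight of the variance trend over all genes, were infinite against 10.8. The edgeR block fit thus used no quasi-likelihood variance particular to a gene. It called 59.0% of genes against 50.5%, so its smaller p-values do not make it the more cautious fit. Libraries of a group differed beyond sampling noise (chi-square per gene 5.92 to 10.9). Other alternatives were DESeq2 1.42.0, other scalings and filters, a robust fit and leaving out each library. Positions and lengths come from GENCODE 29, promoters from RefSeq.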

Additional observations from a re-analysis of the deposited data

How the results depend on the processing

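TUBA4A kept its call in every alternative fit, each library left out included, whereas the calls of TUBA1A, TUBB4B and TUBB6 depended on single libraries. TUBB3 kept its call in every fit except that with a minimum count of 50, where it was not tested. As stated above, TUBB3 passed the filter only through its WFA libraries, so its kept calls are no independent support. The number of tubulin genes lower was 1 with upper-quartile scaling and 1 with a minimum count of 50, in both of which TUBB4B missed the threshold (edgeR adjusted p = 0.0525 and 0.0546). With 1 library left out it was 0 to 2, and 0 without DMSO replicate 1 or 2 or WFA replicate 1 or 3 (1, 1, 0 and 2 genes at an unadjusted p under 0.05 in edgeR, in that order, against 2 lower genes in DESeq2's Wald test with all libraries). The number higher was between 2 and 4 in all fits. TUBA1A was not called with total counts (edgeR adjusted p = 0.119), and TUBG1 was (-0.32, edgeR adjusted p = 0.0347).

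The replicate block in edgeR called 3 tubulin genes lower, TUBG1 among them (2 in DESeq2 with the block), and gave the beta sum as -0.25 (edgeR adjusted p = 0.00492). The beta sum passed the threshold also with DESeq2's Wald test (-0.27), RLE factors (-0.26) and total counts (-0.33). It passed too with no filter (-0.26), a robust fit (-0.25) and DESeq2 with the block (-0.27, added after seeing the data). It missed the threshold with upper-quartile scaling (edgeR adjusted p = 0.0599) and with a minimum count of 50 (0.0613). With 1 library left out it ranged from -0.31 to -0.18. It then missed the threshold without DMSO replicate 1 (edgeR adjusted p = 0.114), DMSO replicate 2 (0.162), WFA replicate 1 (0.192) or WFA replicate 3 (0.0748). The alpha sum, which never passed, ranged from -0.061 to 0.045 in those fits and changed sign to 0.035 without DMSO replicate 2 and to 0.045 when WFA replicate 1 was left out. So did TUBA1B (0.0068 and 0.0014 in those fits, range -0.10 to 0.0068) and TUBA1C (0.0027 without WFA replicate 1, range -0.15 to 0.0027), and the difference in TUBB4B share, 0.073 percentage points, became -0.42 without DMSO replicate 2, -0.085 with WFA replicate 1 left out and -0.17 with WFA replicate 3 left out (range -0.42 to 0.48). The sum of TUBB2A and TUBB2B, called in edgeR (1.36, adjusted p = 0.00913), lost its call with DESeq2 (log2 fold change 1.36, and 1.32 with the block). Gamma-complex genes higher were 2 with the block, 0 with total counts, 2 with no filter, 0 with DESeq2 and the block, and 0 to 2 with 1 library left out (at an unadjusted p under 0.05, 1, 1 and 0 to 2 genes for total counts, DESeq2 with the block and the left-out fits), and those lower were 3 to 6 over all fits, with 5 under the block and 6 with total counts.

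Per kilobase of the median instead of the longest transcript, levels with DMSO were 1142 for TUBA1B, 232.5 for TUBB6, 105 for TUBA1C, 48.5 for TUBA1A, 35.2 for TUBG1, 32.5 for TUBA4A and 0.915 CPM per kb for TUBB3, so the choice of transcript sets the distance between genes and the order of TUBA1A and TUBG1. By the median transcript, TUBB3 (0.915 ± 0.195) was above TUBB2A (0.320 ± 0.0512) with DMSO, beyond the spread that covered their difference by the longest. TUBG1 (35.2 ± 5.31) and TUBA4A (32.5 ± 6.43) no longer differed beyond their spread (SD, n = 3 each). The cause of the other shifts was not tested. At 5 to 12 counts per DMSO library, TUBB2A and TUBB3 are limited by depth.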

Other observations

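TUBB, a beta-tubulin gene of most dividing cells, lies in the MHC and was left out of the 10 genes, since counts of that region are largely missing here. It had 699, 607 and 587 counts with DMSO and 388, 455 and 395 with WFA. Every WFA library was below every DMSO library, with 31.7, 36.6 and 36.8 CPM against 49.2, 47.9 and 48.9 CPM. Its log2 fold change was -0.47 (SE 0.10, edgeR adjusted p = 0.000897).

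Another tubulin row, outside the 10 genes and chosen after its values were seen, was TUBBP5, a transcribed beta-tubulin pseudogene. It had 1, 1 and 0 counts in the DMSO libraries and 26, 35 and 31 in the WFA libraries. All DMSO libraries were under 3 counts each, which came to a mean of 0.233 CPM. Its level of 2.61 ± 0.422 CPM with WFA (SD, n = 3) was 11.2-fold that value. The limit of 3 counts is for a count of 0, and some DMSO libraries had 1 count, so this is no strict lower bound. Only its WFA libraries reached the minimum count of the filter. Of its windows of 50 bases, 52.4% also occur in 8 other genes, with 25.6% in TUBB8P7. Its reads therefore cannot all be told apart from those of relatives.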
